A study of Mus musculus with 2 samples.

Results

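*Pomc* and 6 genes of prohormone processing were followed through the cell types of the mouse neurohypophysis (NH). The products of *Pcsk1*, *Pcsk2*, *Cpe* and *Pam* cut, trim or amidate the *Pomc* precursor. Those of *Pcsk1n* and *Scg5* inhibit or assist the enzymes that cut it. All 7 genes were chosen by name, for the role of their products. They were found among the 27998 genes of both count matrices and the 15025 genes of the table of cluster means. NH tissue of male C57BL/6 mice aged 3 months, which carried no transgene and received no treatment, went through droplet sequencing of dissociated single cells, with 2 pools of 5 mice each, so that pools were the replicates and no condition was compared. Each mRNA molecule carried a unique molecular identifier (UMI), and levels are given as counts per 1e6 UMIs (CPM) of the summed cells of a type. UMIs count molecules from one end of the transcript, so that levels were not divided by gene length.

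*Pomc* encodes pro-opiomelanocortin, the precursor of adrenocorticotropic hormone, of the melanocyte-stimulating hormones and of beta-endorphin. In melanotropes, the endocrine cells of the intermediate lobe (IL) that lies against the NH, the precursor is cut by the prohormone convertases PC1/3 (*Pcsk1*) and PC2 (*Pcsk2*), trimmed by carboxypeptidase E (*Cpe*) and amidated by peptidylglycine alpha-amidating monooxygenase (*Pam*). *Pcsk1n* encodes proSAAS, an inhibitor of PC1/3, and *Scg5* encodes 7B2, a chaperone that PC2 needs to mature.

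With the cell limits used in the study, 273 cells of pool 1 and 255 of pool 2 remained, with 1001 to 9851 UMIs each and medians of 2050.0 and 2330.0. Every cell was matched to 1 of the 11 deposited clusters, which fell into 7 types. The types carry the names used in the study, and some differ from those in the deposited table, where the clusters of IL cells are called neural progenitor a and b and that of VLMC is called OPC/LVMC. There were 80 and 68 IL cells, 108 and 88 pituicytes (the glia of the NH), 41 and 54 macrophage/microglia and 26 and 16 T-cell like cells. The other types were small, with 7 and 16 epithelial-like cells, 6 and 7 vascular endothelial cells and 5 and 6 vascular and leptomeningeal cells (VLMC). No barcode was shared by the kept cells of both pools. Of 6 melanotrope markers, 6 were found in IL cells of pool 1 and 5 in those of pool 2, where *Drd2* was at 0. Pituicytes held 5 and 4 of them, at a summed 4116 and 3144 CPM against 125445 and 95359 CPM in IL cells. Of 3 corticotrope markers, 2 (*Crhr1* and *Tnnt1*) were found in IL cells of each pool, at a summed 53.3 and 68.1 CPM, and *Avpr1b* was at 0. Pituicytes held 8 of 8 pituicyte markers in each pool, at a summed 7193 and 7472 CPM. IL cells held 8 and 6 of them too, at 249 and 56.1 CPM, so that the levels differed more than the counts of markers. The lists include genes that the study chose from these same data or used to name types. The marker values are thus a description with no test. The cells labelled VLMC held 6 of 6 VLMC markers and also oligodendrocyte markers, at a summed 17430 and 17949 CPM.

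*Pomc* was by far the most abundant of the 7 genes in IL cells. Its level was 119412 CPM in pool 1 and 89661 CPM in pool 2 (mean 104536 ± 21037, SD, n = 2), from 33587 and 22374 UMIs. Pituicytes followed at 4048 and 3117 CPM, and epithelial-like cells at 2692 and 2927 CPM. Without 3 *Pomc*-rich cells, described further on, pituicytes had 748 and 302 CPM, below epithelial-like cells and macrophage/microglia. Macrophage/microglia had 1252 and 862 CPM, T-cell like cells 492 and 653, VLMC 942 and 464 and vascular endothelia 1322 and 240 CPM. No pool of another type came near IL cells, which stood 28.8-fold to 29.5-fold above all pituicytes of the same pool, while the ranges of VLMC and vascular endothelia overlapped those of macrophage/microglia and T-cell like cells. *Pomc* and *Pcsk2* were used in the study to name the IL cells, so their levels there are a description with no test, and *Pomc* is left out of contrasts whose mean includes IL cells.

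*Pcsk2*, the convertase that cuts out alpha-melanocyte-stimulating hormone and beta-endorphin, reached 4807 and 4532 CPM in IL cells (mean 4670 ± 194, SD, n = 2). Pituicytes had 55.2 and 11.8 CPM, from 13 and 3 UMIs. Outside these types *Pcsk2* was near its detection limit, with 6 UMIs in epithelial-like cells of pool 2 and none in vascular endothelia. IL cells thus held *Pcsk2* at a level 37.2-fold that of vascular endothelia, when 3 UMIs are set for the 0 found there.

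*Pcsk1*, the convertase that starts the cleavage of the precursor, was the only gene of the 7 near the limit of detection in IL cells too. It was found in 13 of 148 IL cells with 1 UMI each, 6 cells in pool 1 and 7 in pool 2 (21.3 and 28.1 CPM), and in no cell of another type. The 0 UMIs in pituicytes allowed up to 6.13 CPM, and the level over all IL cells was 3.99-fold this limit. In macrophage/microglia they allowed up to 15.3 CPM, and the level in IL cells was 1.60-fold that limit. Both folds leave out the counting error of the 13 UMIs in IL cells, so they are not lower bounds. For T-cell like cells (35.7 CPM), epithelial-like cells (38.3), vascular endothelia (126) and VLMC (127) the limit lay above the level in IL cells. A difference from those types could not be shown. Of the 13 cells, 11 also held *Pcsk2*. *Pcsk1* did not reach the count filter of the test, which left 6 of the 7 genes tested among 4510.

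**Figure D1:**
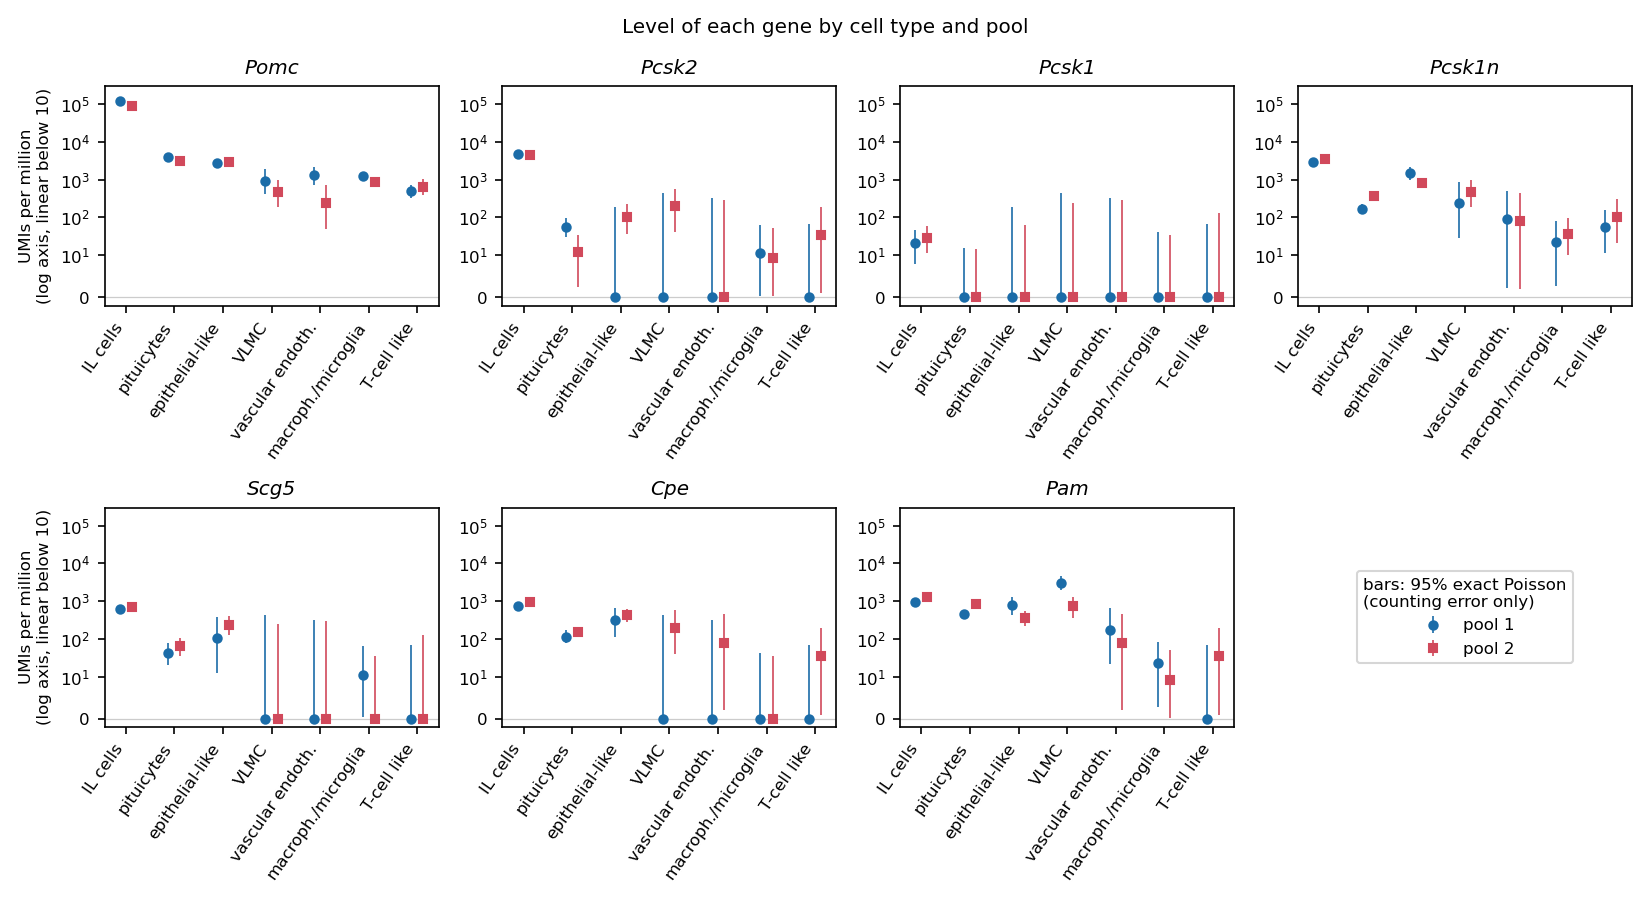
Level of each of the 7 genes (CPM, log scale, linear below 10) in the 7 cell types, with 1 point per pool and exact Poisson 95% intervals that cover counting error only. *Pomc* and *Pcsk2* stood far above every other type in IL cells, *Pcsk1* was found in IL cells alone, and *Pam* was spread over IL cells, pituicytes, epithelial-like cells and VLMC.

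The stretch of 250 bases before the start site is shown for *Pomc* and both convertases, since the 3 genes shared a cell type but not a level. The sequences are from RefSeq on the plus strand of GRCm38.p6, at chr12:3954695-3954944 for *Pomc*, chr13:75089607-75089856 for *Pcsk1* and chr2:143545883-143546132 for *Pcsk2*. Capitals mark CANNTG (the E-box core), TGACG on either strand (the core of the cyclic AMP response element) and TATAAA.
Pomc: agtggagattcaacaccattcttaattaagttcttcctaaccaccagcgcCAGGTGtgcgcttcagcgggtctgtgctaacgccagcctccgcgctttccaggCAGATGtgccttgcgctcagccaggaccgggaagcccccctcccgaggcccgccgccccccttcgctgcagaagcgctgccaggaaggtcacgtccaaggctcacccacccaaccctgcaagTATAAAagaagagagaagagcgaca
Pcsk1: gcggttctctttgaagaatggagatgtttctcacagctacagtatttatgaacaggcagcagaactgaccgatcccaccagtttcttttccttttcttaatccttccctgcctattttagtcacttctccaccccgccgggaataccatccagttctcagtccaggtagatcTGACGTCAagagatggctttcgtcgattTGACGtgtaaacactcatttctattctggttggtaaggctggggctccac
Pcsk2: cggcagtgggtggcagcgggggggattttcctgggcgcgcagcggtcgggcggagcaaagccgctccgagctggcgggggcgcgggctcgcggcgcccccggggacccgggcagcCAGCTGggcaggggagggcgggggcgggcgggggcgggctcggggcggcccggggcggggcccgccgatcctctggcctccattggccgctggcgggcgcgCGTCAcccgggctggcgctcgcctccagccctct
The *Pomc* stretch held 2 CANNTG and 1 TATAAA and no TGACG. That of *Pcsk1* held TGACG 3 times, 2 of them on opposite strands of one TGACGTCA, and neither CANNTG nor TATAAA. That of *Pcsk2* held 1 CANNTG and 1 TGACG and was 82.4% G or C, against 46.8% for *Pcsk1* and a median of 52.4% over the 32851 promoters of the table. It also held GGGCGG, the GC box, 7 times (not in capitals). Of all promoters of this length, 66.2% held CANNTG, 17.8% TGACG, 12.4% TATAAA and 32.7% GGGCGG. A match of these letters is a description and not a bound site. In GRCm38 *Pomc* lies at chr12:3954951-3960642, *Pcsk1* at chr13:75089826-75134861, *Pcsk2* at chr2:143546156-143816285 and *Pcsk1n* at chrX:7919822-7924410, all on the plus strand. On the minus strand lie *Scg5* at chr2:113776362-113829121, *Cpe* at chr8:64592542-64693054 and *Pam* at chr1:97795114-98095646.

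The inhibitor and the chaperone were both highest in IL cells. *Pcsk1n* had 2926 and 3406 CPM in IL cells, 1450 and 829 in epithelial-like cells, and 170 and 359 in pituicytes. *Scg5* had 626 and 713 CPM in IL cells, 104 and 237 in epithelial-like cells, and 42.4 and 63.1 in pituicytes. For both genes the pools of these 3 types did not overlap. How many of all genes were separated in this way is not given, so the lack of overlap is a description with no test. In VLMC *Pcsk1n* had 236 and 464 CPM, a range that overlapped that of pituicytes. It was at most 103 CPM in macrophage/microglia, T-cell like cells and vascular endothelia. *Scg5* had at most 1 UMI per pool in these types and in VLMC.

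The carboxypeptidase and the amidating enzyme were less restricted. *Cpe* had 725 and 930 CPM in IL cells, 311 and 423 in epithelial-like cells, and 115 and 154 in pituicytes. These ranges did not overlap either, which is again a description with no test. *Cpe* had 0 UMIs in the 95 macrophage/microglia. *Pam* had 924 and 1306 CPM in IL cells, 467 and 821 in pituicytes, 777 and 355 in epithelial-like cells, and 3062 and 729 in VLMC. The *Pam* ranges of pituicytes, epithelial-like cells and VLMC overlapped, and those of IL cells and VLMC did as well. In macrophage/microglia *Pam* was at 22.6 and 9.27 CPM.

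In the test over 14 sums (edgeR, Benjamini-Hochberg adjusted over all tested genes), calls needed an adjusted *p* no higher than 0.05 together with a natural log (ln) fold change of 1 or more. In IL cells against the mean of the other 6 types, where 16.7% of all tested genes were called higher, the 4 tested genes besides *Pomc* and *Pcsk2* were all called higher. *Pcsk1n* rose by an ln fold change of 3.24 ± 0.19 (SE; adjusted *p* = 3.8e-65) and *Pam* by 2.26 ± 0.21 (9.1e-25). *Cpe* (3.31 ± 0.25) and *Scg5* (4.64 ± 0.33) were called too, but both were at 0 UMIs in some of the other types, where a fitted fold depends on the prior count of edgeR. With 3 UMIs set for the 0 found there, the level of *Cpe* in IL cells was 53.8-fold that in macrophage/microglia. That of *Scg5* was 18.7-fold the level in T-cell like cells.

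The genes were then compared between pairs of types, with no test of a difference between genes. Against pituicytes, where 6.72% of tested genes were higher in IL cells, 3 of the 4 were called: *Scg5* (2.59 ± 0.27, adjusted *p* = 4.6e-20), *Pcsk1n* (2.56 ± 0.26, 3.2e-20) and *Cpe* (1.88 ± 0.24, 4.7e-13). The levels were 11.3-fold to 14.7-fold higher for *Scg5*, 9.49-fold to 17.2-fold for *Pcsk1n* and 6.04-fold to 6.33-fold for *Cpe* within a pool. *Pam* was 1.59-fold and 1.98-fold higher in IL cells, an ln fold change of 0.63 ± 0.23 that missed the fold limit (adjusted *p* = 0.030). Against epithelial-like cells, where 3.24% were higher in IL cells, all 4 were called: *Scg5* at 1.50 ± 0.31 (5.7e-05), *Pcsk1n* at 1.41 ± 0.26 (5.0e-06), *Pam* at 1.12 ± 0.28 (0.0014) and *Cpe* at 1.05 ± 0.28 (0.0031). With library size alone in place of TMM factors, 2 of these 4 calls were left, those of *Pcsk1n* and *Scg5*. Between IL cells and VLMC, *Pam* did not pass (0.26 ± 0.28, adjusted *p* = 0.658), and its sign turned with the scaling, to -0.43 with library size alone, whereas *Pcsk1n* (2.74 ± 0.35) and *Cpe* (2.48 ± 0.47) were called higher in IL cells (4.79% of tested genes were). *Pam* and *Pcsk1n* were also called higher in IL cells than in macrophage/microglia (4.15 ± 0.41 and 4.54 ± 0.37; 13.2% higher), T-cell like cells (4.53 ± 0.52 and 3.86 ± 0.37; 13.9% higher) and vascular endothelia (2.85 ± 0.45 and 4.29 ± 0.46; 7.14% higher).

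**Figure D2:**
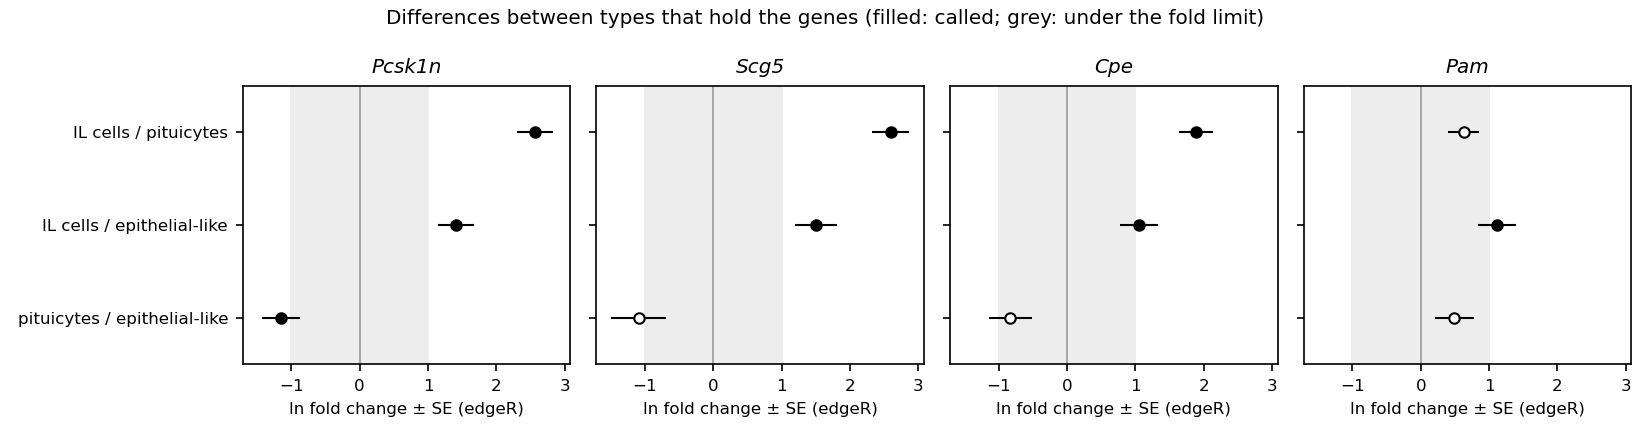
Natural log fold change (edgeR) ± SE (derived from the F statistic) of *Pcsk1n*, *Scg5*, *Cpe* and *Pam* between pairs of types that both held the genes. Filled points are called differences, and the fold limit is in grey. *Pam* lay inside the limit between IL cells and pituicytes, at 0.63, where the other 3 genes lay between 1.88 and 2.59.

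Within IL cells the genes were often found in the same cell, and no share expected from the single genes was computed. A UMI of *Pomc* was found in 98.6% of the 148 cells, of *Pcsk1n* in 94.6%, of *Pcsk2* in 87.8%, of *Cpe* in 81.1%, of *Scg5* in 80.4% and of *Pam* in 77.7%. With every cell thinned to 1000 UMIs the shares were 96.6%, 84.5%, 81.8%, 50.7%, 52.0% and 54.7%. All 6 of these genes were found in 83 of the 148 cells and at least 5 in 119. A UMI of neither convertase was found in 16 cells. In macrophage/microglia, which should lack *Pomc*, 60.0% of cells held a *Pomc* UMI before thinning and 43.2% after, but only 5.26% held *Pcsk1n* and 3.16% *Pam*. The median depth was 3143.5 and 3276.5 UMIs in IL cells and 1777.0 and 1699.0 UMIs in macrophage/microglia.

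*Pomc* spanned a wide range between IL cells of one pool. Per 10000 UMIs, the median was 1055 in pool 1 and 783 in pool 2, and the highest cell had 2965 and 2428. *Pcsk2* had medians of 45.1 and 46.0, and *Pcsk1n* of 29.3 and 31.8. The coefficient of variation over cells was 0.565 and 0.69 for *Pomc* and 1.10 and 1.09 for *Pam*, whose low counts add to it. Over cells thinned to 1000 UMIs, *Pomc* and *Pcsk2* had a Pearson correlation of 0.24 in pool 1 (80 cells) and 0.43 in pool 2 (68 cells), and Spearman values of 0.30 and 0.55. *Pomc* and *Pcsk1n* had Pearson values of 0.04 and -0.06. The correlations include the 12 cells under 1% *Pomc* described further on, of which 1 held a *Pcsk2* UMI. No value was computed without those cells. Cells of a pool share a library and mice, so these values are a description.

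**Figure D3:**
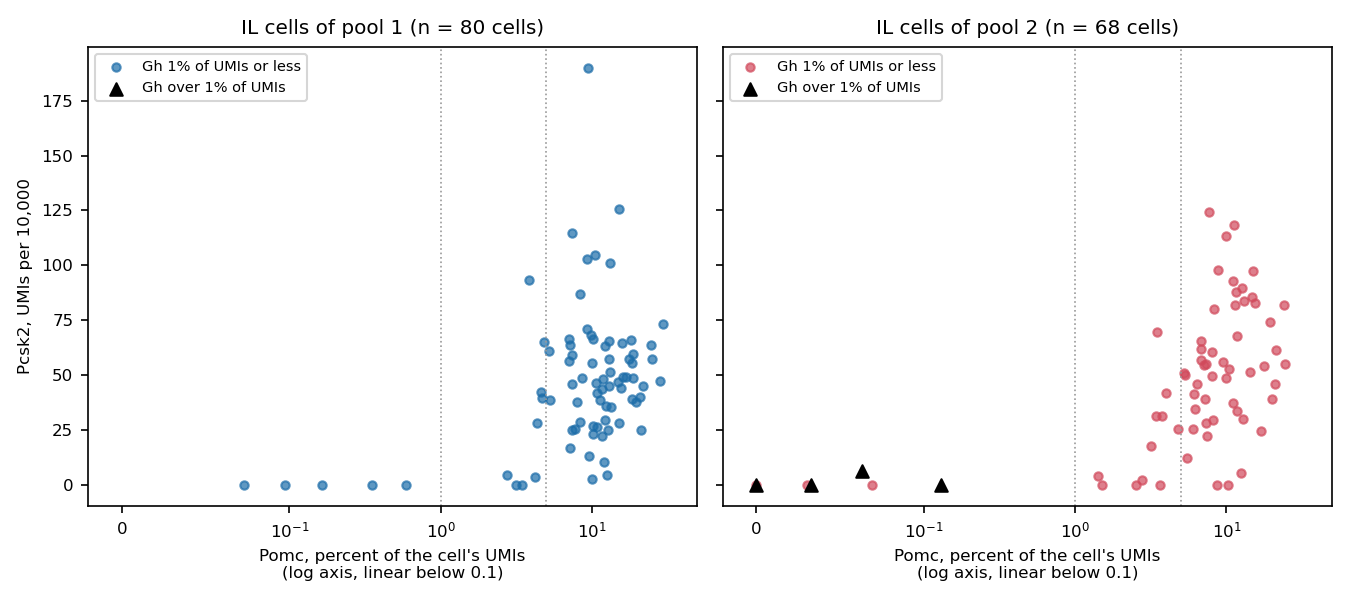
Each point is 1 IL cell, with *Pomc* as a percent of its UMIs on the x axis (log, linear near 0), *Pcsk2* per 10000 UMIs on the y axis, 1 panel per pool, triangles for cells with over 1% *Gh* and dotted lines at 1% and 5%. Of the 12 cells under 1% *Pomc*, 11 had no *Pcsk2* UMI, and the 4 triangles, all in pool 2, were among the 12.

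A small set of cells carried the IL label with little *Pomc*. In 116 IL cells *Pomc* made up over 5% of UMIs, in 20 cells 1% to 5% and in 12 cells under 1% (5 in pool 1, of which 4 were in neural progenitor a, and 7 in pool 2, all 7 in neural progenitor a), with 3 cells within a factor of 2 of the 1% limit. *Pcsk2* was at 5155 and 5436 CPM in the first set and at 2820 and 2550 CPM in the second. The 5 low cells of pool 1 held no UMI of the other 6 genes and had a median of only 1214 UMIs. The 7 low cells of pool 2 held *Cpe* (1399 CPM, all 7 cells), *Pcsk1n* (3748 CPM, 5 cells), *Pam* (1399 CPM, 4 cells) and *Scg5* (1099 CPM, 3 cells), but *Pcsk2* in 1 cell. *Gh*, the growth hormone of anterior lobe somatotropes, was found in 6 of these 7 cells, at 90591 CPM, and *Prl*, the hormone of lactotropes, in 3. *Pax7*, *Oacyl* and *Tbx19* were not found in any of the 12 cells.

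IL cells were deposited as 2 clusters, built from the same expression values, so they are described with no test. *Pam* had 1168 and 1549 CPM in the cluster of 94 cells (neural progenitor a) and 687 and 953 in that of 54 cells. *Pomc* was also higher in the larger cluster, at 130115 and 97886 against 109005 and 77712 CPM. *Pcsk1n* (2979 and 3478 against 2875 and 3303 CPM) differed by less between the clusters than between the pools. *Pcsk2* had 4746 and 4350 CPM in the larger cluster and 4866 and 4797 in the smaller. The smaller cluster had a median mitochondrial share of 13.4% and 14.1%, against 9.16% and 8.63%, and its part in the *Pam* difference was not tested.

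In pituicytes the processing enzyme with the highest level was *Pam*. Against the mean of the other types, where 16.8% of tested genes were called higher, *Pam* was called (1.52 ± 0.23, adjusted *p* = 8.6e-10, edgeR) and *Cpe* was called close to the limit (1.11 ± 0.36, 0.012). *Scg5* (1.62 ± 0.68, 0.070) and *Pcsk1n* (0.25 ± 0.24, 0.546) did not pass. *Cpe* lost its call with other scalings, with DESeq2 and with a mitochondrial limit of 10%, whereas *Pam* kept its call against the mean of the other types under every alternative run. Against macrophage/microglia, where 13.4% were higher in pituicytes, *Pam* had an ln fold change of 3.52 ± 0.42 (3.3e-15), and against T-cell like cells, where it was found in 1 pool only, it was called as well (3.90 ± 0.56; 15.3% higher). Against vascular endothelia *Pam* (2.22 ± 0.48, 0.00015) and *Pcsk1n* (1.73 ± 0.60, 0.040) were higher in pituicytes (6.94% of tested genes were). *Pcsk1n* lost this call under 9 alternatives, with adjusted *p* of 0.066 to 0.434, and *Pam* lost it with DESeq2 (0.137) and with a mitochondrial limit of 10% (0.069). Between pituicytes and epithelial-like cells (0.49 ± 0.28, adjusted *p* = 0.340) or VLMC (-0.37 ± 0.28, 0.505), *Pam* was not called. A *Pam* UMI was found in 53.6% of pituicytes, or 40.3% after thinning.

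RNA released into the suspension enters every droplet, and 157608 barcodes of pool 1, each holding only 1 to 50 UMIs, gave its content. *Pomc* had 15745 CPM there, *Pcsk1n* 751, *Pam* 305, *Pcsk2* 233, *Cpe* 107, *Scg5* 73.5 and *Pcsk1* 3.17 CPM. When scaled to the *Pomc* in macrophage/microglia and T-cell like cells of the same pool, free RNA was 6.10% and 5.19% of UMIs. Pituicytes then held 110 and 208 *Pam* UMIs where free RNA gave 4.39 and 4.02, and 27 and 39 *Cpe* UMIs where it gave 1.54 and 1.40. *Scg5* (10 and 16 against 1.06 and 0.97) and *Pcsk1n* (40 and 91 against 10.8 and 9.88) were above this level in both pools. *Pcsk2* had 13 UMIs against 3.34 in pool 1 and 3 against 3.06 in pool 2. In macrophage/microglia, *Pcsk1n* (2 and 4 UMIs against 4.06 and 4.21) and *Pam* (2 and 1 against 1.65 and 1.71) were at the level of free RNA. These counts have counting error only, and pool 2 was deposited with no barcodes of few UMIs, so its profile was taken from pool 1.

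**Figure D4:**
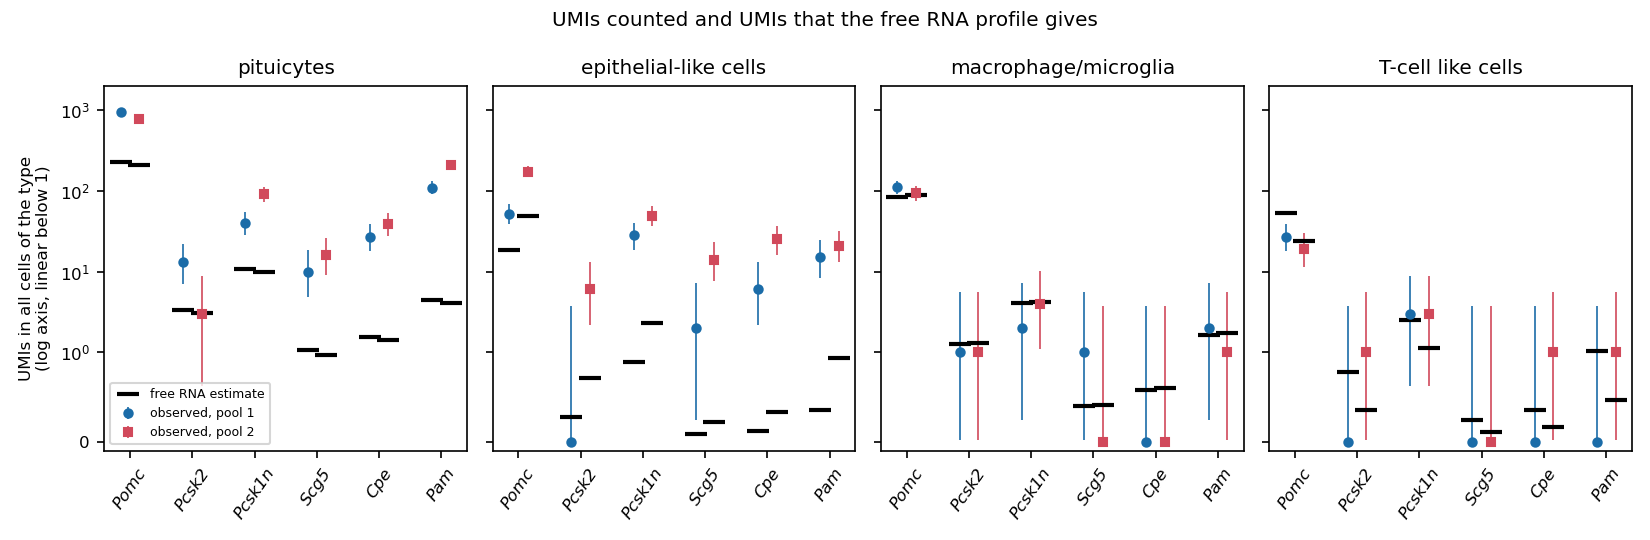
UMIs summed over the cells of 4 types (y axis, log, linear below 1) for the genes besides *Pcsk1*, with 1 point per pool, exact Poisson 95% intervals and black marks for the UMIs that free RNA would give. *Pam* and *Cpe* in pituicytes and epithelial-like cells lay above the free RNA level, and *Pcsk1n* and *Pam* in macrophage/microglia lay at it.

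The *Pomc* of pituicytes came mostly from 3 of 196 cells. These 3 cells, in the deposited cluster pituicytes b, gave 17.7%, 7.30% and 9.05% of their UMIs to *Pomc* and held 1497 of the 1744 *Pomc* UMIs of all pituicytes (85.8%; 781 of 954 in pool 1 and 716 of 790 in pool 2). They also held 8, 3 and 0 *Pcsk2* UMIs and 4, 5 and 18 *Pcsk1n* UMIs, and none was called a doublet by Scrublet. Without them *Pomc* in pituicytes was 748 and 302 CPM, and *Pcsk2* 5 UMIs in pool 1 and 0 in pool 2. *Pam* stayed at 471 and 836 CPM. With all pituicytes *Pomc* was above macrophage/microglia by an ln fold change of 1.10 ± 0.26, and without the 3 cells it was below, at -0.82 (adjusted *p* = 0.010, under the fold limit).

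**Figure D5:**
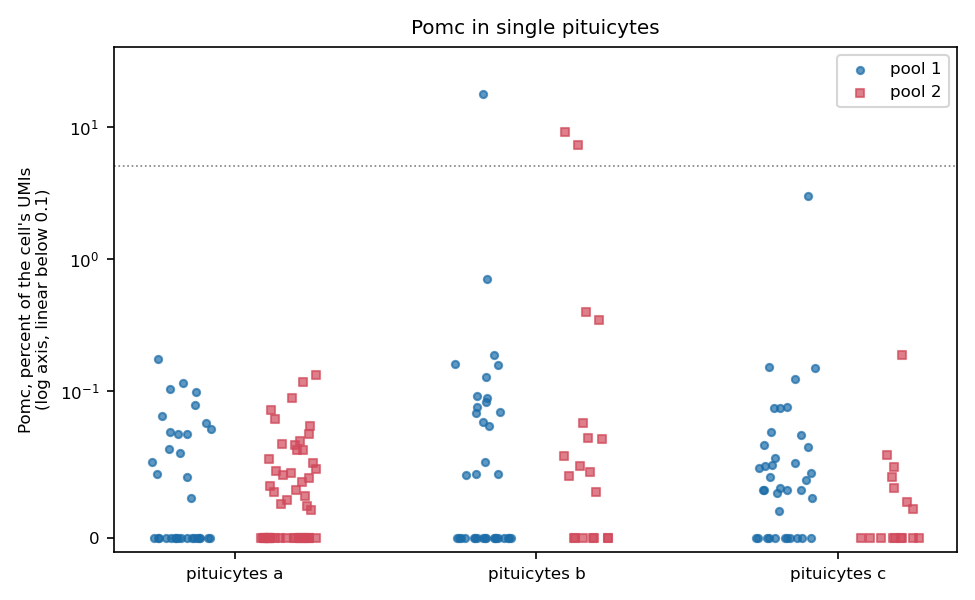
Share of UMIs from *Pomc* in each pituicyte (percent, log scale, linear below 0.1) by deposited cluster and pool, with 1 point per cell and a dotted line at 5%. The 3 cells at 7.30% to 17.7%, all in pituicytes b, stood above the other 193.

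In epithelial-like cells *Pcsk1n*, *Scg5* and *Cpe* lay between their levels in IL cells and pituicytes. Against the mean of the other types, where 7.96% of tested genes were higher, *Pcsk1n* (1.59 ± 0.25, adjusted *p* = 1.6e-08, edgeR), *Cpe* (2.08 ± 0.38, 2.9e-06) and *Scg5* (2.89 ± 0.63, 0.00018) were called and *Pam* was just under the fold limit (0.95 ± 0.31, 0.027). *Pam* passed both limits with RLE factors (1.02), library size alone (1.02), library size without *Pomc*, free RNA subtracted (1.38) and a mitochondrial limit of 10% (1.35). Under the other 9 of 14 alternatives *Pam* was not called, with a lowest ln fold change of 0.56. Against pituicytes *Pcsk1n* was higher in epithelial-like cells (pituicytes lower by -1.15 ± 0.28, 0.00087; 4.19% of tested genes were lower in pituicytes). In pool 1, however, 2 of the 7 cells had over 1% *Gh* and held 26 of the 28 *Pcsk1n* UMIs and 11 of the 15 *Pam* UMIs. They also held 2 of the 6 *Cpe* UMIs and 2 of the 2 *Scg5* UMIs of that type. The other 5 cells of pool 1 held no *Scg5* UMI. With the cells of over 1% *Gh* left out of all types, *Pcsk1n* in pool 1 was 135 CPM, it stood 1.06 above the mean of the other types on the ln scale (adjusted *p* = 0.0028), and the difference from pituicytes lost its call (-0.62, 0.2005). Without the pituicyte sum of pool 1 that difference was -0.83, under the fold limit. No fit of this pair left out the epithelial-like sum of pool 1.

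In VLMC *Pam* was the 1 gene of the 7 called higher (1.96 ± 0.30, adjusted *p* = 9.7e-09, edgeR; 2.88% of tested genes were higher), with 26 and 11 UMIs. In pool 1 the 5 cells held 8, 14, 4, 0 and 0 UMIs, and in pool 2 the 6 cells held 1, 0, 1, 2, 7 and 0. *Lum*, a fibroblast marker, was found in the cells with 8, 14, 4, 1 and 7 UMIs. Without the VLMC sum of pool 1 the call was lost (1.22). In macrophage/microglia (1.18% of tested genes lower) *Pam* (-2.59 ± 0.59, 0.00012) and *Pcsk1n* (-2.06 ± 0.42, 1.2e-05) were called lower, as they were in T-cell like cells (2.75% lower) at -3.03 ± 0.64 (3.4e-05) and -1.27 ± 0.44 (0.028). In T-cell like cells *Pcsk1n* lost its call under 7 alternatives, among them the removal of the T-cell like sum of pool 1 (-1.01) or pool 2 (-1.46). *Pam* lost its call without the T-cell like sum of pool 1 (-2.13). Both lost it with free RNA subtracted. *Cpe* was also called lower in macrophage/microglia, where it had 0 UMIs.

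Of 111 other genes of precursor processing in 8 lists, 45 passed the count filter. In IL cells 16 of the 45 were called higher, in a contrast where 16.7% of all tested genes were. The granins, acidic proteins that help form secretory granules, were called in 4 of 4 tested members. These were *Chgb* (4.65 ± 0.35), *Scg2* (4.49 ± 0.29), *Chga* (4.43 ± 0.29) and *Scg3* (3.74 ± 0.54), with a median of 4.46 against 0.38 over all tested genes. The study chose *Scg2* and *Chga* from these same data as markers of IL cells. Their calls here, and their part in the median, are thus a description with no test. Of the melanotrope and corticotrope regulators 5 of 7 were called, led by *Pax7* (4.20), which sets melanotrope fate, *Tbx19* (3.59), a transcription factor of *Pomc*, and *Nr4a2* (3.15), and *Nr3c1*, the glucocorticoid receptor, was lower (-1.09 ± 0.36, 0.015), in a contrast where 2.08% of tested genes were lower. *Tbx19* had 146 and 120 CPM in IL cells and 4.24 and 7.89 in pituicytes. Of 12 tested genes of the proton pump that acidifies granules 4 were higher, *Atp6v1b2* (2.28), *Atp6v0a1* (2.19), *Atp6v0e2* (1.90) and *Atp6v1d* (1.36), with a list median of 0.60. *Cyb561* (2.30), which regenerates the ascorbate that the amidating enzyme uses, *Rnpep* (2.10), an aminopeptidase, and *Nucb2* (1.19), the precursor of nesfatin, were the others. Neither of the 2 tested other convertases was called, and *Furin* had 53.3 and 44.1 CPM in IL cells against 67.9 and 90.7 in pituicytes.

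In pituicytes 10 of these 45 genes were called higher, in a contrast where 16.8% of all tested genes were. None of the 4 granins was called. *Cyb561* was called (2.55 ± 0.59), at 76.4 and 94.7 CPM, as were 3 of 12 proton pump genes (*Atp6v0b* 1.21, *Atp6v1a* 1.18 and *Atp6v1e1* 1.09) and 1 of 2 other convertases (*Mbtps1*, the site-1 protease, 2.07). Of 11 other peptide-processing enzymes *Ctsh* (2.53), *Rnpep* (2.52) and *Ece1* (1.04) were higher. Among other peptide precursors *Adm*, the precursor of the amidated peptide adrenomedullin, had 446 and 513 CPM in pituicytes and 17.8 and 0 in IL cells (4.81 ± 0.36). The study chose *Adm* from these same data as a pituicyte marker, so its call is a description with no test. *Oxt*, the oxytocin precursor, had 530 and 544 CPM in pituicytes and 99.5 and 84.2 in IL cells (1.29 ± 0.19). It was also called higher in VLMC, where 2.88% of tested genes were. In pituicytes *Oxt* lost its call with DESeq2 and with a mitochondrial limit of 10%. Whether its UMIs came from the pituicytes themselves was not tested. *Nr4a1* (-1.96) and *Nr4a2* (-1.10) were lower, as were 0.953% of tested genes. In epithelial-like cells 3 of 4 granins were called, *Scg2* (3.89), *Chga* (3.36) and *Chgb* (3.29).

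Of the receptors of *Pomc* peptides, the melanocortin receptor *Mc1r* was found in IL cells (92.4 and 104 CPM) and pituicytes (102 and 122 CPM), at levels that overlapped. It was the only tested gene of this list and was called in no type. Against the mean of the other types its ln fold change was 0.70 in pituicytes, 0.63 in IL cells and 0.48 in macrophage/microglia. It was 0.18 in epithelial-like cells, 0.12 in vascular endothelia, -1.03 in VLMC and -1.09 in T-cell like cells. *Mc2r*, *Mc3r*, *Mc4r* and *Mc5r* had 0 UMIs in IL cells, pituicytes and epithelial-like cells.

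By Pearson correlation of log2(CPM + 50) over the 14 sums, the tested genes most like *Pomc* were *Rundc3a* (0.948), *Zdbf2* (0.947) and *Celf4* (0.946). *Gria2* (0.969) and *Egr4* (0.962) were among those most like *Pcsk2*. *Pcsk1* was at 0 in 12 of the 14 sums, so no likeness is given for it. *Scg5* was most like *Tenm4* (0.976), *Dbpht2* (0.976) and *Gprasp2* (0.975). *Pcsk1n* and *Cpe* were among the genes most like each other (0.931), and both had *Bex4* first (0.943 and 0.959) and *Bex2* second (0.933 and 0.946). *Pam* was most like *Snhg18* (0.944), *Ttll7* (0.901) and *Pfn2* (0.894). The sums of a type in both pools are 2 points of 14, and types with few cells add noise to these values.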

How the data were processed

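For both pools the authors deposited raw UMI counts by gene and barcode, made with Cell Ranger (versions 1.2.1, 2.0.0 and 2.1 are listed in the submitters' notes) and STAR 2.5.1b on mm10, with the first 1500 barcodes holding 1480737 and 1474311 UMIs. They also deposited a table of 11 cluster means, a linear signal of UMIs per 10000 per cell (Seurat 2.3). As in the study, cells were kept between 1000 and 10000 UMIs and between 400 and 5000 genes, with less than 25% mitochondrial UMIs. Each cell was assigned by non-negative least squares on the cluster means (scipy 1.17.1), with a lowest weight of 0.989 in its own cluster. The clusters were built from expression that includes the 7 genes. Scrublet (scanpy 1.11.5) called 5 doublets, which were kept.

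Counts were summed per pool and type and tested with edgeR 4.0.16 (quasi-likelihood, TMM, minimum count 5, R 4.3.3), and the procedure was tested on simulated data. Residual degrees of freedom were 7 and the common dispersion was 0.038, shared by all types. Each SE was derived from the F statistic of the test, as the absolute ln fold change divided by the square root of F. P-values measure the spread between 2 pools of mice. Sums of the same pool number come from the same mice and library and are thus paired. The correlation of pool differences between types was -0.025 to 0.127 (median 0.021 over 21 pairs). Levels at 0 UMIs were bounded at 3 UMIs, and intervals cover counting error only. Folds against that bound leave out the counting error of the type above it.

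Members and lists were chosen with earlier results of these data known. Named genes are the 7, up to 4 called genes per list and direction with the largest fold change, list genes at 0 on which a sentence turns, the 3 genes most alike in pattern, and marker genes where a type was checked; *Furin* and *Mc1r* levels were added after their values were seen. Alternatives were other scalings, DESeq2 1.42.0, other filters, a pool block, subtraction of free RNA and clustering without the 7 genes and the list genes. Others left out 1 pool from the type named first in a contrast or, chosen after seeing the data, left out cells. Some genes that this rule names are not reported here.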

Additional observations from a re-analysis of the deposited data

Results flagged for a closer look

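Barcodes outside the limits of the study also held *Pomc*. With over 10000 UMIs, 6 of 9 barcodes of pool 1 and 4 of 11 of pool 2 gave over 5% of their UMIs to *Pomc*. Over that group *Pomc* was at 64933 and 42228 CPM and *Pcsk2* at 3560 and 2165 CPM, with 3 and 4 *Pcsk1* UMIs, beside 13 *Pcsk1* UMIs in all kept cells. Of the barcodes that failed by mitochondrial share alone, 6 of 56 in pool 1 and 8 of 27 in pool 2 had over 5% *Pomc*. These barcodes entered no comparison. What they hold was not tested.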

How the results depend on the processing

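In IL cells the 4 calls, and the 3 calls against pituicytes, held under every alternative run. Of all counts and shares, these included, 94 stayed close, 17 were weaker, 2 were stronger and 6 moved. Of values of single genes 772 stayed on their side, 71 lost a call, 5 gained one and 6 changed sign. The replicate block by pool gave the same counts, with 4 genes higher in IL cells, 2 in pituicytes and 3 in epithelial-like cells. Pituicytes had 1 call in place of 2 (*Pam*, without *Cpe*) with RLE factors, library size alone, library size without *Pomc*, DESeq2 and a mitochondrial limit of 10%, and 1 to 2 with a pool left out. Epithelial-like cells had 5 in place of 3 with free RNA subtracted, where *Pam* and *Pomc* were added. That subtraction was scaled to *Pomc* in macrophage/microglia and T-cell like cells, so the *Pomc* call is no test. *Scg5* and *Cpe* lost their calls without the epithelial-like sum of pool 2. IL cells against epithelial-like cells had 2 in place of 4 with RLE factors and both library sizes, 1 with DESeq2 (*Pcsk1n*) and 1 with the 10% limit (*Scg5*), and 2 to 4 with a pool left out. Pathway calls in IL cells were 28 in place of 16 with no count filter, 5 with DESeq2, 5 with the 10% limit and 14 with either pool left out. In pituicytes they were 2 in place of 10 with DESeq2, 3 with the 10% limit and 8 to 11 with a pool left out. The cause of these changes was not tested, though DESeq2 called fewer of all genes (4.43% higher in IL cells). A left-out pool was taken only from the type named first in a contrast, which then had 1 sum, assumed to vary like the others. *Pam* between IL cells and VLMC turned to -0.24 (RLE), -0.43 (library size), -0.32 (library size without *Pomc*) and -0.28 (DESeq2). *Pomc* in pituicytes turned to -0.82 against macrophage/microglia and to -0.026 against T-cell like cells without the 3 *Pomc*-rich cells. With clusters built without the 7 genes and the list genes, it was 0.36 against macrophage/microglia and lost its call (adjusted *p* = 0.130, edgeR). *Cpe* in pituicytes was 22.7 times the free RNA level, and 34.6 times when scaled to T-cell like cells alone. Thinning moved the shares of IL cells with a UMI to 2.70% for *Pcsk1*, 84.5% for *Pcsk1n*, 52.0% for *Scg5*, 50.7% for *Cpe* and 54.7% for *Pam*. TMM put the median ln fold change of all genes at 0.38 in IL cells and 0.41 in pituicytes, against 0.12 and 0.25 with library size alone. Clustering without the 7 genes and the list genes returned 139 of 148 IL cells and 99 of 196 pituicytes. Another 93 pituicytes fell into unnamed clusters, of which the largest, with 109 cells, held 8 of 8 pituicyte markers. A further 2 pituicytes fell with IL cells and 2 with macrophage/microglia. Whether the *Pomc*-rich pituicytes were among them was not tested. All 23 epithelial-like cells and 11 VLMC were in unnamed clusters. Depth limits *Pcsk1* and the types with few cells.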
